A study of Mus musculus with 8 samples.

Results

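Open chromatin away from promoters was examined at the ATAC-seq summits of brown adipose tissue (BAT) that lay between genes and at an intermediate distance from a promoter. A summit was counted when it was outside every curated RefSeq mRNA transcript (accession type NM) and more than 5 kb and at most 50 kb from the nearest mRNA transcription start site (TSS), on chromosomes 1 to 19 of mm10. Of the 31729 summits on these chromosomes, 4276 (13.5%, 95% Wilson interval 13.1 to 13.9) met this rule, or 13.3% of the 32173 summits of the whole list. They are called distal intergenic summits below. The rule used position only and no score.

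The 4 ATAC-seq libraries were made from BAT of mice of both genotypes, 2 WT and 2 Dot1L-BKO. WT mice carried floxed Dot1l without Cre, and in Dot1L-BKO mice Dot1l, the histone H3 lysine 79 methyltransferase gene, was deleted by Ucp1-Cre, which acts in Ucp1+ cells only, so that vascular, immune and progenitor cells of the tissue keep the gene. All 4 mice were 12 weeks old and on chow, and were kept at 4°C for 4 hr before the tissue was taken. The authors' list gives a position and a score, the −log10 of the MACS2 q-value, for each peak. Each peak's name sets both WT libraries against ("vs") both Dot1L-BKO libraries, and whether the Dot1L-BKO libraries served as control in the peak call is not given in the sources used here. A score is therefore the strength of a peak call, which may be of WT over Dot1L-BKO or of all 4 libraries jointly, and not the accessibility in either genotype. With no value per library, depth is unknown, no replicate error can be given and the genotypes could not be compared.

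Enhancers are stretches of open DNA that bind transcription factors and raise transcription of genes at a distance. In brown adipocytes they are known to be bound by adipogenic factors such as PPARγ, C/EBP, EBF and NFI proteins, and by factors that act downstream of β-adrenergic signaling and cAMP, the pathway that cold activates. Open chromatin between mRNA genes can also be the promoter of a noncoding RNA, an insulator bound by CTCF or a repeat. A nearest TSS, as used below, gives a position and not a target.

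The sequences below are the plus strand of mm10 (RefSeq, GRCm38) from 50 bases before to 50 bases after the summit, 5′ to 3′, with bases in capitals where they match 1 of 13 patterns, namely the 12 motifs that were denser at the summits than beside them and a looser DR1. They are shown for these matches. The first pair followed a fixed rule (the highest-scoring summit near an adipocyte gene with 1 of the 5 motifs most concentrated at summits within 30 bp), and the others were chosen after their values were seen.
Lpl, 32.4 kb upstream, chr8:68848132-68848232, score 10.9, ETS: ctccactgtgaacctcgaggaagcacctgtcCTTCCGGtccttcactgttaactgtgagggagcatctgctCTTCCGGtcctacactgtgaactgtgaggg
Lpin1, 8.18 kb upstream, chr12:16619096-16619196, score 12.8, NFI: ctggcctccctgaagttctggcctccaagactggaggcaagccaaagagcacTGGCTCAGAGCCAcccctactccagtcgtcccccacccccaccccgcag
Ucp1, 11.6 kb upstream, chr8:83278682-83278782, score 28.2, C/EBP: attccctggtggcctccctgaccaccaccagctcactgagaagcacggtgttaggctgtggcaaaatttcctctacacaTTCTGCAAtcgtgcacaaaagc
Ppargc1a, 41.9 kb upstream, chr5:51595790-51595890, score 19.8, C/EBP: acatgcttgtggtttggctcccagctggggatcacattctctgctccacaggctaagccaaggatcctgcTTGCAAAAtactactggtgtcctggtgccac
Ebf2, 44.4 kb upstream, chr14:67188807-67188907, score 36.7, AP-1: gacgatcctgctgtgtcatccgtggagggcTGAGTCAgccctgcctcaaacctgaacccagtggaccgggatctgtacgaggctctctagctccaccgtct
Prkar2b, 14.3 kb upstream, chr12:32075479-32075579, score 32.5, ERR: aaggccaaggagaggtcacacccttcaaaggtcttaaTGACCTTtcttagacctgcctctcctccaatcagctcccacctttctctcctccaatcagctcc
Errfi1, 16.7 kb downstream, chr4:150871697-150871797, score 23.1, EBF: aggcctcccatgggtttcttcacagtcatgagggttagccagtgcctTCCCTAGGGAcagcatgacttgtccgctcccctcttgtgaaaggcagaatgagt
Zbtb38, 21.1 kb upstream, chr9:96752704-96752804, score 14.0, CRE and AP-1: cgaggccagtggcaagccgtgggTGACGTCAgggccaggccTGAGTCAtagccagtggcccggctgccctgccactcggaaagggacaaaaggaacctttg
Gngt2, 15.8 kb downstream, chr11:95858955-95859055, score 58.6, NRF1: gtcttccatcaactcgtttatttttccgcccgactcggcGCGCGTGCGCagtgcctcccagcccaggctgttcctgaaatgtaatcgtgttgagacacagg
The Ucp1 window, taken as that of the gene's highest-scoring summit, held a C/EBP match. Windows taken in the same way for Fabp4 and Agpat2 held 0 matches and are not shown. The Ppargc1a window was chosen for its C/EBP match, and the Lpl window held the ETS letters in both copies of a short tandem repeat. The Gngt2 summit, with NRF1 letters, lay 167 bp from a tRNA gene and within 1 kb of the start of a RefSeq transcript other than a curated mRNA. Of the 224 distal intergenic summits nearest to thermogenic, adipocyte transcription factor, lipid or β-adrenergic genes, 0 held NRF1, CRE or EBF letters within 30 bp of the summit, 1 held ETS and 1 held NFI. In the windows of 201 bp used below, 3 held EBF (1.34%, against 1.63% of the other distal intergenic summits), 3 held NFI (1.34% against 1.38%) and 4 held ETS (1.79% against 2.54%).

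The distal intergenic summits had a median score of 4.61 (order-statistic interval 4.34 to 4.61) with quartiles of 2.92 and 8.27. A score of at least 10 was reached by 827 of them (19.3%, 18.2 to 20.6). This share was above that of intronic summits at the same distances (13.9%, 13.0 to 14.8, n = 5607) and of summits beyond 50 kb (15.9%, 14.96 to 16.9, n = 5256), with intervals that do not overlap. It was also above the share at 1 to 5 kb from a TSS (10.9%, 10.1 to 11.7) and in exons (7.12%, 5.74 to 8.79), and below the 42.9% (41.9 to 43.9) within 1 kb of a TSS. Intervals in this report cover counting error only.

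**Figure D1:**
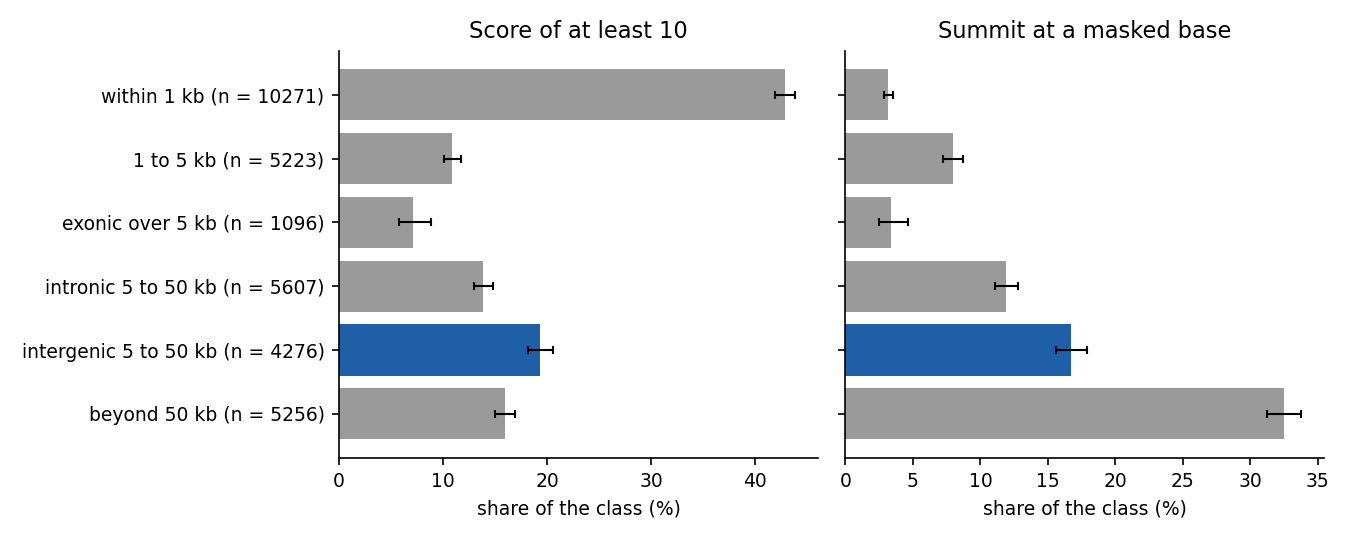
Share of summits (x axis, %) with a score of at least 10 (left) and at a repeat-masked base of the reference (right) in 6 position classes, with bars from 0 and 95% Wilson intervals. The distal intergenic summits (blue) reached a score of at least 10 in 19.3% and lay at a masked base in 16.7%, against 13.9% and 11.9% for intronic summits at the same distances.

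The sequence under the distal intergenic summits was GC-rich, with a median GC content of 53.7% in windows of 201 bp, the same median as for the intronic summits. A masked base lay under 715 of them (16.7%, 15.6 to 17.9), while 38.8% of the bases that meet the position rule are masked. CpG-rich windows, with at least 50% GC and an observed to expected CpG ratio of at least 0.6, made up 11.4% (10.52 to 12.4) of the distal intergenic summits and 2.92% (2.51 to 3.40) of the intronic ones. The share was higher beyond 50 kb (15.1%, 14.2 to 16.1) and 9.34% (8.58 to 10.2) at 1 to 5 kb.

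Just inside the limit of 5 kb, the summit 5003 bp upstream of Agpat2, a gene of triglyceride synthesis, had a score of 63.7, and those at 5004 bp from Plaat3 and Tchp had scores of 3.32 and 5.55. Just outside it, summits at 5000 bp from Garre1 and 4998 bp from Ehd1 had scores of 5.39 and 2.15. At the far limit, a summit 49990 bp from Chst14 was counted, with a score of 5.07, and one 50007 bp from Ttr was not, with a score of 4.04. The median score was 4.56 in 233 intergenic summits at 4 to 5 kb and 4.16 in the 205 at 5 to 6 kb, with overlapping intervals (4.04 to 5.07 and 3.75 to 4.9995).

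The highest score of the list, 13426, belonged to a distal intergenic summit 25.9 kb upstream of Col19a1 on chromosome 1, where the whole 1-kb window around the summit matched the mitochondrial genome at 99.9% identity. The other 2 with a mitochondrial match of at least 200 bp had shorter and less similar ones. These were near Fbxo33 (424 bp at 86.8% identity, score 542) and Nfasc (639 bp at 87.2%, score 377). Reads of mitochondrial DNA can be placed at such nuclear copies, and how the authors handled them is not given in the sources used here.

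The 10 highest scores without a mitochondrial match lay near Rnf44 (133), Eapp (111 and 88.4), Zbtb20 (102), Ccnl1 (99.4), Tlcd2 (97.1), Rdm1 (93.8), Ppargc1b (90.5), Hemk1 (79.8) and Gorab (75.9). At 6 of these 10, the start of a noncoding or predicted RefSeq transcript lay within 1 kb. The Rnf44 and Zbtb20 summits were 29 and 44 bp from the start of a predicted mRNA of the same gene, and the Tlcd2 summit was 143 bp from that of Mir22hg, the host gene of miR-22. The Eapp and Rdm1 summits lay at genes of the U1 and U2 small nuclear RNAs, which are part of the spliceosome. The Ppargc1b summit, 37.8 kb upstream of the gene of the coactivator PGC-1β, was 37.5 kb from the nearest RefSeq start of another kind.

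Small RNA genes lay at some of the highest scores. RefSeq genes of tRNAs, rRNAs, snRNAs, snoRNAs, miRNAs and other types lay within 500 bp of 147 distal intergenic summits (3.44% of all, 2.93 to 4.03), but within 500 bp of 11 of the 48 with a score of at least 50 and no mitochondrial match (22.9%, 13.3 to 36.5). Of these 11, 9 were at snRNA genes, while of the 56 near such a gene with a score of at least 10, 20 were at snRNA and 21 at tRNA genes. The 147 included 13 at genes of the RefSeq type misc_RNA, some of which, such as Gm46773, are long genes with the summit inside and not small RNA genes. Of the 13, 1 had a score of at least 10 and 0 had one of at least 50. The 26 summits at snRNA genes had a median score of 31.7, while the median was 6.08 at tRNA genes (n = 64), 6.48 at rRNA genes (n = 23) and 5.001 at miRNA genes (n = 13). Those at U1 genes upstream of Eapp on chromosome 12 had scores up to 111, and those at U2 genes near Rdm1 and Arl4d on chromosome 11 had scores of 93.8, 68.5 and 66.4. A score of 52.8 was found 3 bp from Rn7sk on chromosome 9, which encodes the 7SK RNA that holds the elongation factor P-TEFb inactive. Of 220 tRNA genes located between 5 and 50 kb from a TSS, 84 had a distal intergenic summit within 500 bp (38.2%, 32.0 to 44.8), as did 26 of 252 snRNA genes (10.3%, 7.14 to 14.7). Over all types the count was 166 of 908 genes (18.3%, 15.9 to 20.9), so the share of snRNA genes lay below it. Other counts were 22 of 31 rRNA, 17 of 147 miRNA and 7 of 219 snoRNA genes. These lists of small RNA genes were drawn up after the highest scores were seen. Many of these genes are near-identical copies, so that a read from one copy can be placed on another, and how such reads were handled is not given in the sources used here. Their part in these scores was not tested.

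The 5S rRNA genes form a tandem array. On chromosome 8, 29 of them, with a median spacing of 1698 bp, fell between 5 and 50 kb from the TSSs of Gas8 and Rhou, and 23 distal intergenic summits lay within 500 bp of one, with scores from 1.34 to 14.4. Of the 19 summits downstream of Gas8, 13 were within 500 bp of a 5S gene, as were 10 of the 18 upstream of Rhou. At a median spacing of 1698 bp, positions within 500 bp of a gene make up a large part of the array. These counts therefore do not show that summits lay at the genes more often than between them. A masked base lay under 14 of the former and 15 of the latter. Reads that fit several copies cannot be told apart, and their part in these counts was not tested.

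Starts of RefSeq transcripts other than curated mRNAs lay within 1 kb of 536 distal intergenic summits (12.5%, 11.6 to 13.6). These had a median score of 5.55 (5.07 to 6.02), and 26.9% (23.3 to 30.8) were CpG-rich. The other 3740 had a median score of 4.42 (4.16 to 4.61), and 9.22% (8.34 to 10.2) were CpG-rich. A score of at least 10 was reached by 27.8% (24.2 to 31.7) of the first and by 18.1% (16.9 to 19.4) of the second. Mir210, the gene of a miRNA induced by hypoxia, was 490 bp from a summit with a score of 52.6. Mir145a, the gene of a miRNA known from smooth muscle, was 95 bp from one with a score of 23.8.

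Position was then related to the bases at which a distal intergenic summit could lie. Those bases add up to 413 Mb, which gave 10.3 summits per Mb (exact Poisson interval 10.04 to 10.7). The density was 12.5 per Mb (11.7 to 13.3) at 5 to 10 kb from the TSS and 7.96 (7.25 to 8.72) at 40 to 50 kb. Upstream of the nearest TSS lay 2765 summits (64.7%), but 70.5% of the bases are also upstream, and the density was 9.49 per Mb (9.14 to 9.85) upstream and 12.4 (11.8 to 13.0) downstream. Between genes that point at each other it was 14.0 per Mb (13.1 to 14.98), between genes in tandem 10.2 (9.79 to 10.6) and between divergent genes 8.93 (8.42 to 9.46). The median score was between 4.19 and 4.61 in all 6 distance ranges.

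**Figure D2:**
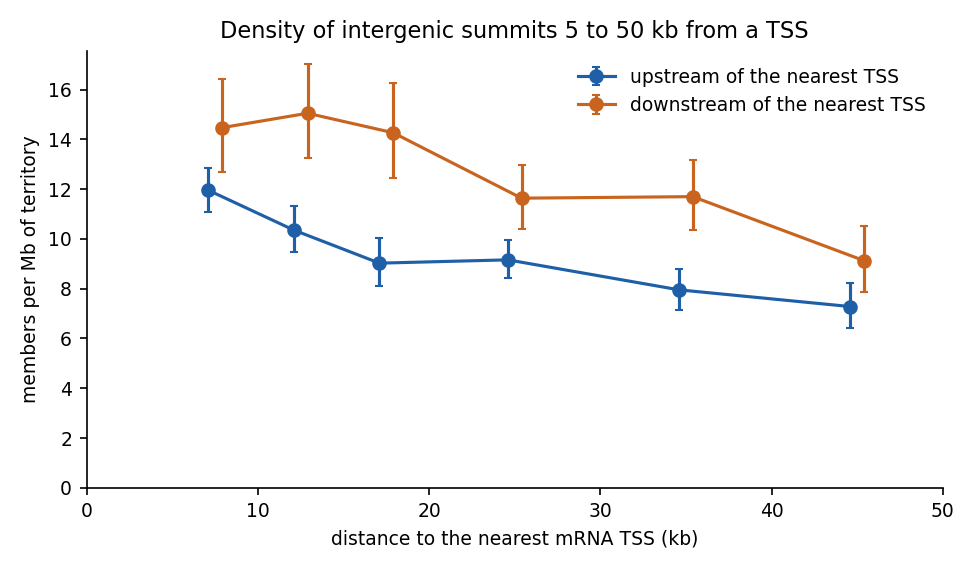
Distal intergenic summits (members) per Mb of the bases that meet the position rule (territory; y axis, from 0) against distance to the nearest mRNA TSS (x axis, kb; points at the middle of each range, shifted slightly apart), upstream and downstream, with exact 95% Poisson intervals. The downstream density ran from 14.5 at 5 to 10 kb to 9.13 at 40 to 50 kb and was above the upstream density, 12.0 and 7.28, in every range.

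Density also differed with annotation. It was 15.9 per Mb (14.2 to 17.7) within curated noncoding RNA genes, which held 310 summits, 15.03 (13.8 to 16.3) within predicted noncoding RNA genes, which held 595, and 7.92 (6.28 to 9.86) in pseudogenes. Outside all of these and of predicted mRNAs it was 9.40 (9.07 to 9.73), with 3128 summits (73.2%). Unmasked bases had 14.1 per Mb (13.6 to 14.6) and masked bases 4.46 (4.14 to 4.797). By chromosome it ran from 5.24 per Mb (4.33 to 6.30) on chromosome 13 to 17.8 (15.7 to 20.02) on chromosome 15.

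Enhancers annotated in RefSeq, mostly regions from the VISTA transgenic mouse assays, cover 0.109% of the bases but held 31 distal intergenic summits (0.725%, 0.511 to 1.03), a density of 69.0 per Mb (46.9 to 98.0). Btg2, which encodes an antiproliferative protein, had 6 of these, the highest with a score of 49.1 at 14.1 kb upstream. Others lay 17.3 kb upstream of D5Ertd579e (56.6), 13.0 kb upstream of Ski (20.9), a repressor of TGFβ signaling, and 18.7 kb upstream of the immediate early gene Fos (20.2). The share among intronic summits was 0.606% (0.434 to 0.846), with an overlapping interval.

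A distal intergenic summit had its nearest TSS at 2352 of 20021 genes (11.7%), and one with a score of at least 10 at 644 genes (3.22%). These shares are the background for the gene lists below. Genes with more such summits more often had a summit within 1 kb of their own TSS. That share was 39.2% (38.4 to 40.04) in genes that could have had a distal intergenic summit and had 0, 51.5% (49.0 to 54.0) in the 1558 genes with 1, 64.5% (60.4 to 68.3) in the 560 with 2 to 3, 75.1% (68.8 to 80.5) in the 209 with 4 to 9, and 80.0% (60.9 to 91.1) in the 25 with 10 or more. The bases in which such a summit could lie moved with these groups, with medians of 17.8, 30.002, 37.4, 38.9 and 48.9 kb per gene, and the part of this was not tested.

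The 5 lists of adipocyte genes had shares above the background, with intervals that do not include it. When every gene with a TSS within 50 kb was counted, this no longer held for the insulin and glucose list (37.5%, 21.2 to 57.3, against 22.7% of all genes). A nearest summit was found for 10 of 24 brown thermogenic genes (41.7%, 24.5 to 61.2), 14 of 31 adipocyte transcription factor genes (45.2%, 29.2 to 62.2), 20 of 36 lipid genes (55.6%, 39.6 to 70.5), 13 of 27 β-adrenergic and cAMP genes (48.1%, 30.7 to 66.0) and 8 of 24 insulin and glucose genes (33.3%, 17.97 to 53.3), against 11.7%. With a score of at least 10 the counts were 5, 7, 10, 6 and 3, against 3.22%. Per Mb of the bases nearest to each list's genes, which takes account of large gaps between genes, the densities were 73.9 (54.3 to 98.3), 46.7 (34.3 to 62.1), 81.0 (63.2 to 102), 60.03 (45.8 to 77.3) and 24.2 (15.2 to 36.6), against 10.3. Several densities rest in part on 1 gene. Without Ppara, which had 26 of 47 summits, the thermogenic density was 35.5 (22.0 to 54.3), without Cebpb, with 19 of 47, the transcription factor density was 29.4 (19.5 to 42.5), and without Sik1, with 21 of 60, the β-adrenergic density was 42.6 (30.3 to 58.2). Without Trib1, with 8 of 22, the insulin and glucose density was 16.9 (9.26 to 28.4), which includes 10.3.

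**Figure D3:**
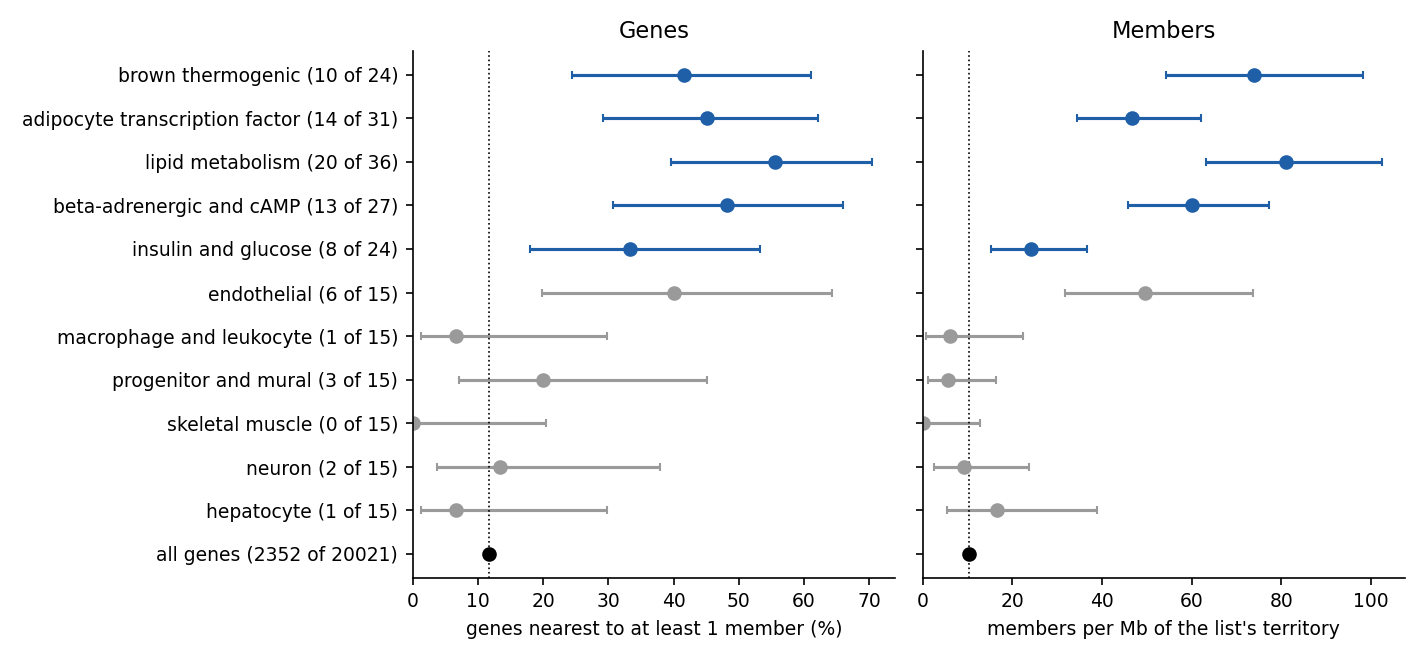
Left, share of the genes of each list that are nearest to at least 1 distal intergenic summit (member; x axis, %, 95% Wilson intervals). Right, summits per Mb of the bases nearest to the list's genes (exact 95% Poisson intervals). Blue marks adipocyte lists, grey marks lists of other cell types, and the dotted lines mark all genes, 11.7% and 10.3 per Mb. The 5 adipocyte lists and the endothelial list lie above both lines, and skeletal muscle is at 0.

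Among thermogenic genes, Ucp1, which encodes the uncoupling protein that produces heat, had 3 distal intergenic summits, with scores of 28.2 at 11.6 kb upstream, 11.01 at 5.67 kb upstream and 11.6 at 9.76 kb downstream. Ppargc1a, the gene of the coactivator PGC-1α, had 3 with near-equal scores of 19.1, 20.2 and 19.8 at 13.9, 38.0 and 41.9 kb upstream. Ppargc1b had 4, of which that at 37.8 kb had a score of 90.5 and the others 1.63 to 19.1. Cidea, which encodes a lipid droplet protein, had 5 upstream, with scores of 35.01 at 13.5 kb and 30.9 at 15.6 kb, both within the noncoding RNA gene B430212C06Rik. Ppara, the gene of a nuclear receptor for fatty acids, had scores of 41.9, 38.4 and 26.9 at 14.8, 17.5 and 10.7 kb upstream. The other thermogenic genes with one had no score above 5.39, with Prdm16 at 2.92 and Cox8b at 2.53.

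Among transcription factor genes, Klf9 had a score of 41.0 at 5.30 kb upstream and Ebf2, a determinant of the brown lineage, had one of 36.7 at 44.4 kb upstream. Scores of at least 10 were also found near Nfic (19.4 at 5.88 kb upstream), Cebpb (18.1 at 7.35 kb downstream), Zfp423 (17.4 at 7.92 kb upstream), Nfia (16.7 at 17.1 kb upstream) and Klf15 (15.4 at 12.0 kb upstream). Cebpa had 5 summits, all downstream and none with a score above 7.05.

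In the lipid list, the highest scores lay near Agpat2, Scd1, Lpl and Lpin1. Scd1, the stearoyl-CoA desaturase gene, had 9 summits, 5 of them with scores of at least 10, up to 49.1 at 18.8 kb downstream and 30.9 at 8.80 kb upstream. Lpl, the lipoprotein lipase gene, had 13, from 2.15 to 32.5, with the highest at 14.3 kb upstream. Lpin1, which encodes a phosphatidate phosphatase, had 3 upstream with scores from 12.8 to 26.1. Agpat2 had 6 within 5.003 to 10.7 kb upstream, all inside the predicted noncoding RNA gene Gm39772, and after that of 63.7 the next highest was 12.2.

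Of the β-adrenergic and cAMP genes, Prkar2b, which encodes a regulatory subunit of protein kinase A, had 4 summits upstream with scores of 50.04, 32.5, 30.1 and 3.32. Nr4a1, an immediate early nuclear receptor gene induced by cAMP, had 9 within 6.20 to 20.4 kb upstream, the outermost with 45.5 and the innermost with 33.3. Nr4a2 had 1, with a score of 26.1. Sik1, the gene of a salt-inducible kinase that cAMP induces, had 21, of which 1, with a score of 18.1 at 13.3 kb downstream, reached 10. Adrb1, the β1-adrenergic receptor gene, had 10, with scores up to 13.3.

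In the insulin and glucose list, Pdk4, which encodes an inhibitor of pyruvate dehydrogenase, had 4 summits with scores of 37.6, 23.8, 14.0 and 7.58. Trib1 had 8, up to 23.1, Socs3 had 5, up to 10.6, and Pygl had 1 with 9.78.

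Of 15 endothelial genes, 6 were nearest to a distal intergenic summit (40%, 19.8 to 64.3), with 49.5 per Mb (31.7 to 73.6), and both intervals lay above the values of all genes. At higher scores the density no longer did. With a score of at least 5 the endothelial density was 12.4 per Mb (4.54 to 26.9) against 4.75 over all bases, and with a score of at least 10 it was 4.12 (0.50 to 14.9) against 2.00. Of the 24 summits, 15 were upstream of Egfl7, with scores from 1.71 to 14.7, and without this gene the density was 19.96 (9.13 to 37.9), which includes 10.3. Of the others, Pecam1 had 1 with 10.1, Cldn5 had 3 up to 4.61 and Flt1 had 3 up to 3.75. Egfl7 is also the host of miR-126. The counts were 3 of 15 progenitor and mural genes (Col1a1 14.0, Cd34 9.01, Notch3 8.12), 2 neuronal genes (Snap25 14.2, Neurod2 2.33), 1 macrophage gene (Laptm5 3.32) and 1 hepatocyte gene (Ttr 5.79, with 5 summits), each with an interval that includes 11.7%. None of 15 skeletal muscle genes had one (0%, up to 20.4%, which also includes 11.7%). Summits within 1 kb of a TSS were found at 46.8% of all genes and at 79.2% (59.5 to 90.8) of thermogenic genes. The share was 53.3% (30.1 to 75.2) of endothelial genes, which includes that of all genes, 20% of progenitor and mural genes, 13.3% of macrophage genes, and 6.67% each of muscle, neuronal and hepatocyte genes. Fewer cells of a type and less open chromatin per cell cannot be told apart in whole tissue. If the list was called as WT over Dot1L-BKO, neither can be told apart from a lack of difference between the genotypes. These shares are therefore no check of the cell types present.

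Genes with many distal intergenic summits were Ppara (26), Sik1 (21), Cebpb and Gas8 (19 each), Rhou (18), Dusp1 (17), Egfl7 (15), and Lpl, Sec14l1 and Smim41 (13 each). The 26 of Ppara lay 10.7 to 49.9 kb upstream, where the bases open to the rule at this gene amount to 45 kb, the length of a single side, so that the side was fixed by the rule. Of these, 2 were within 500 bp of the let-7c-2 and let-7b miRNA genes, with scores of 4.61 and 4.56. At Cebpb, the gene of a cAMP-responsive C/EBP factor, 18 of 19 were downstream. Sik1 had 9 upstream and 12 downstream. The bases open to the rule differ between sides, so sides are given as a description. Dusp1, the gene of a MAP kinase phosphatase, had 7 upstream and 10 downstream, with a median score of 6.02.

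**Figure D4:**
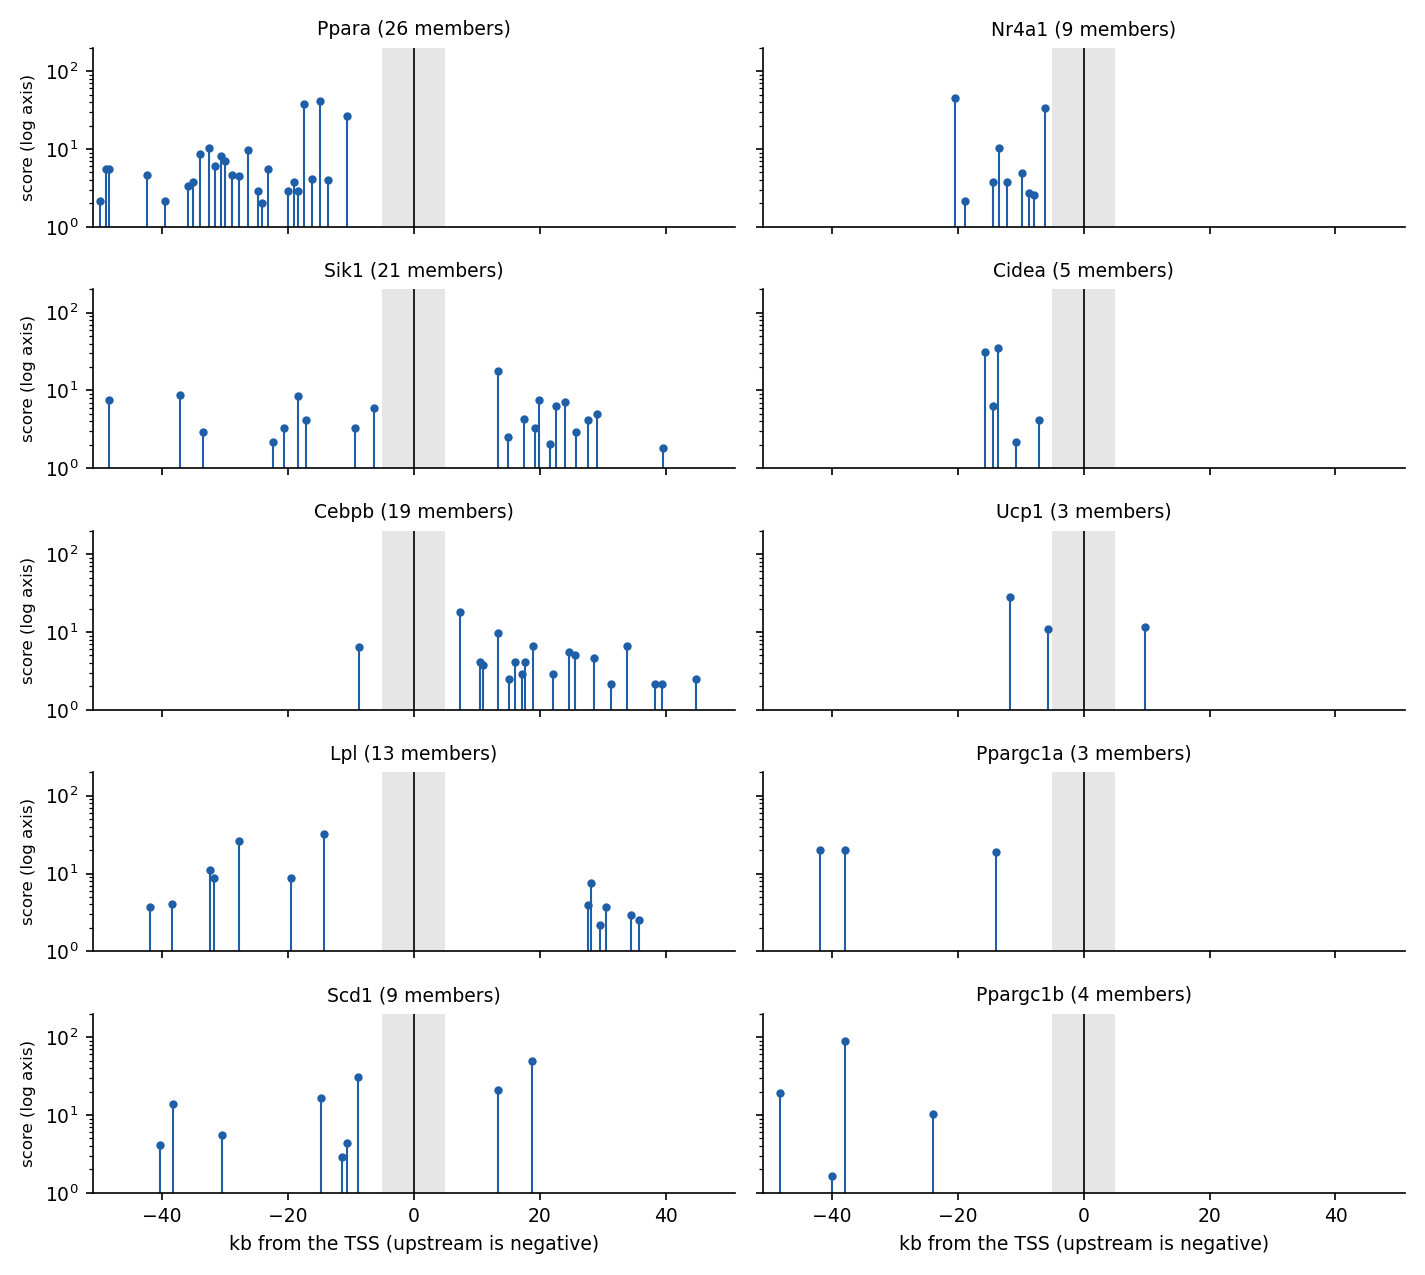
Distal intergenic summits (members) around 10 genes, as distance from the TSS (x axis, kb, upstream negative in the direction of transcription) and score (y axis, log scale from 1). The grey band within 5 kb of the TSS was left out by the rule. The 26 summits of Ppara are upstream, the side that the rule allows there, and most are under 10, and the 3 of Ppargc1a are near 20.

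Summits were grouped into runs in which neighbours were at most 10 kb apart. Of the 4276, 1901 (44.5%) stood alone and 1114 (26.1%) were in 183 runs of at least 4. The largest was that of the 26 upstream of Ppara over 39.2 kb. Runs of 18 and 15 lay at Cebpb and Egfl7. By summed score the Ppara run came first (222), followed by 9 summits near Tob2 and Tef on chromosome 15 (210) and the U1 genes upstream of Eapp (207 and 179). A run of 11 near Il17b on chromosome 18 (144), with scores up to 40.5, included 6 in Carmn. Summits in runs of at least 4 and single summits had the same median score, 4.61, and 19.7% and 18.3% of them reached 10.

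Among the genes of noncoding transcripts, Gm12216, next to Irf1 and Slc22a5 on chromosome 11, held 8 distal intergenic summits with scores up to 26.9. The predicted gene Gm11476, near Snai1 and Ube2v1 on chromosome 2, also held 8, none above 6.02.

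Motif letters were counted on both strands within 100 bp of the summit (center) and 500 to 1000 bp away (flank). Of 24 motifs, 12 were at least 1.5 times denser at the center. These were NRF1 (GCGCA and GCGC 1 base apart, 4.85 times), CRE (TGACGTCA, 4.59), EBF (TCCC and GGGA 2 bases apart, 2.69), ETS (CCGGAAG, 2.26), NFI (TGGC and GCCA 5 bases apart, 2.09), C/EBP (TTGCNNAA, 2.00), SP/KLF (GGGCGGG, 1.95), CTCF (CCANNAG and GGC 2 bases apart, 1.80), DR4 (AGGTCA repeated 4 bases apart, 1.67, from 1 match), AP-1 (TGANTCA, 1.62), GR (ACA and TGTNC 3 bases apart, 1.57) and ERR (AAGGTCA, 1.53). The ratio of GR was 2.36 at summits on masked bases and 1.45, under 1.5, at the others, where an E-box (CAGCTG) was at 1.51. CpG-rich windows held 26 of the 30 summits with NRF1 letters. In the 3787 summits that were not CpG-rich, the ratio was 0.645 for NRF1 and 1.27 for SP/KLF, both under 1.5, against 3.83 for CRE, 2.64 for EBF, 2.17 for NFI, 2.00 for C/EBP and 1.61 for ETS. A DR1 repeat (AGGTCA repeated 1 base apart), the element that PPAR and RXR bind, was in only 2 windows, and a looser form added afterwards (AGGNCA repeated 1 base apart) was in 25 (0.585%), 1.07 times as dense as in the flank. GATA letters (AGATAA) were sparser at the center, at 0.560 times the flank. So were IRF letters, a GAAA repeated 2 bases apart, at 0.545 times. The flank was not matched to the center in GC content.

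**Figure D5:**
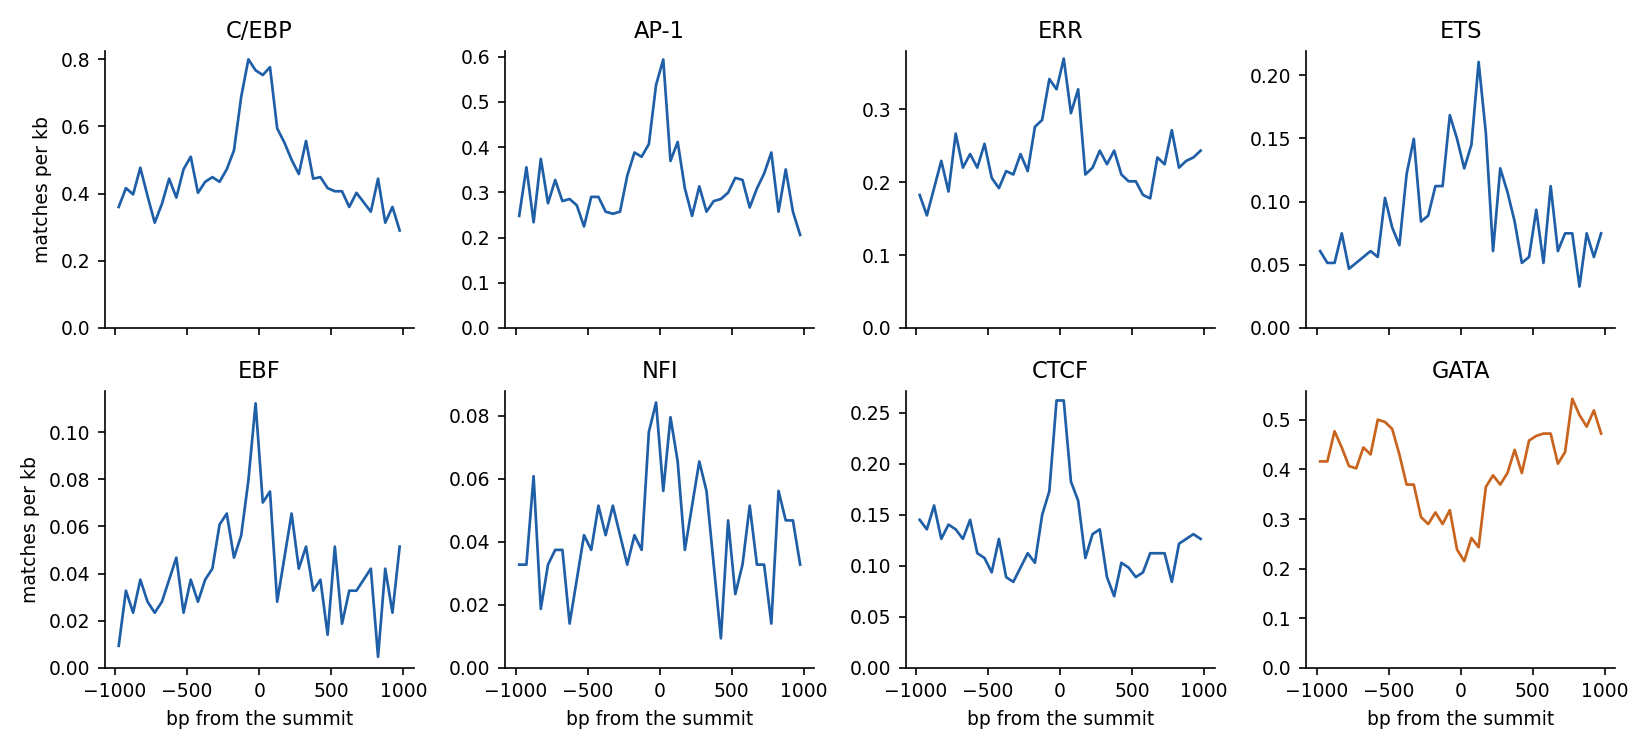
Matches per kb (y axis, from 0) to 8 motifs in bins of 50 bp around the 4276 distal intergenic summits (x axis, bp from the summit). C/EBP and CTCF matches peak near the summit, at center to flank ratios of 2.00 and 1.80, and GATA letters (orange) are lowest there, at 0.560.

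C/EBP letters were in the windows of 573 distal intergenic summits (13.4%, 12.4 to 14.5), against 8.87% of all windows of 201 bp that tile the bases meeting the position rule (the territory), 10.4% (9.61 to 11.2) of intronic summits and 22.1% (21.0 to 23.3) of summits beyond 50 kb. They were in 23.2% (20.3 to 26.4) of summits at a masked base and 11.4% (10.4 to 12.5) of the others, with ratios of center to flank of 2.74 and 1.80, and in 17.99% (16.3 to 19.8) of single summits and 8.17% (6.70 to 9.92) of those in runs of at least 4. CTCF letters were in 3.88% (3.34 to 4.50), against 1.44% of tiled windows, 2.78% (2.38 to 3.25) of intronic summits and 1.43% (1.14 to 1.79) of summits beyond 50 kb. AP-1 letters were in 8.56% (7.76 to 9.44) and 5.97% of tiled windows, ERR letters in 6.22% (5.54 to 6.98) and 3.94%, EBF in 1.61% (1.28 to 2.04) and 0.379%, and NFI in 1.38% (1.07 to 1.78) and 0.348%. SP/KLF letters were in 5.64% (4.98 to 6.37) and 1.02%, ETS in 2.50% (2.08 to 3.01) and 0.619%, NRF1 in 0.702% (0.492 to 1.00) and 0.0517%, and CRE in 0.748% (0.531 to 1.05) and 0.125%.

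The windows at summits held more G and C than the territory, whose median window had 43% GC. In windows with 50 to 55% GC, C/EBP letters were in 12.2% (10.55 to 14.0) of the summits and 5.67% of the tiled windows, AP-1 letters in 9.68% (8.23 to 11.4) and 5.53%, EBF in 2.35% (1.67 to 3.30) and 0.695%, and CTCF in 3.89% (2.99 to 5.05) and 1.75%. In the same windows ETS letters were in 1.76% (1.19 to 2.61) and 1.202%, a share that lay inside the interval of the summits. IRF letters, sparser at the center than in the flank, were here in 1.908% (1.305 to 2.780) and 1.502%. The second share again lay inside the interval of the summits, so they were not sparser at this GC content. GATA letters remained sparser, in 4.04% (3.11 to 5.22) of the summits and 6.22% of the tiled windows.

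Several motifs were more frequent under higher scores. AP-1 letters were in 5.88% (4.67 to 7.38) of summits with scores under 3 and in 12.2% (10.2 to 14.6) of those with at least 10. ERR letters went from 5.03% (3.92 to 6.43) to 9.67% (7.84 to 11.9), C/EBP from 9.21% (7.68 to 10.998) to 15.2% (12.9 to 17.8) and SP/KLF from 3.67% (2.73 to 4.90) to 9.92% (8.06 to 12.1). CTCF letters had 3.50% and 3.51%. Other motifs went down, with overlapping intervals. GATA letters went from 6.05% (4.83 to 7.57) to 3.51% (2.45 to 4.99), and a second ETS pattern (CAGGAAG) from 11.5% (9.81 to 13.5) to 8.46% (6.75 to 10.6).

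The motifs also split by nearby transcript starts. C/EBP letters were in 7.09% (5.21 to 9.58) of the 536 summits within 1 kb of another RefSeq start and in 14.3% (13.2 to 15.5) of the others, and they were no denser at the center than in the flank of the former (ratio 1.00, against 2.15). SP/KLF letters were in 12.1% (9.63 to 15.2) of the former and 4.71% (4.07 to 5.43) of the latter, ETS in 4.66% (3.18 to 6.79) and 2.19% (1.77 to 2.71), and NRF1 in 2.05% (1.15 to 3.64) and 0.508% (0.325 to 0.792). Summits nearest to the thermogenic, transcription factor, lipid and β-adrenergic lists did not stand apart in C/EBP letters (10.7%, 7.31 to 15.4, n = 224, against 13.5%, 12.5 to 14.6) or AP-1 letters (8.48%, 5.50 to 12.9, against 8.56%, 7.74 to 9.47).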

How the data were processed

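ATAC-seq was done on BAT of 4 mice, 2 per genotype. Per the labels and the study's methods, trimmed reads were aligned with BWA (Partek Flow, build mm10), and MACS2 2.1.1, in its ATAC mode, then called peaks. The methods also describe a union of the samples' peak regions, quantified in Partek, which was not used here. The authors deposited 1 list of summits with −log10 q-values, which is the unit used here. The shift applied to reads and the handling of multi-mapped and mitochondrial reads are not given in the sources used here, nor is which libraries served as treatment or control in the list. RNA-seq libraries were not analysed here.

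Summits were placed on the RefSeq annotation of the same build. Territory was every base other than N that meets the position rule. Shares have Wilson intervals, densities exact Poisson intervals, and medians order-statistic intervals, all at 95%. Mitochondrial matches of at least 200 bp in 1-kb windows came from blastn 2.17.0 (e-value limit 1e-10). No test was made, since summits are not replicates and the list has no values per library. Computations ran in Python 3.11.15 with scipy 1.17.1, numpy 2.4.6, pandas 2.3.3 and matplotlib 3.10.9, and were tested on simulated data.

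The summits, the 11 gene lists, the 24 motifs and the alternatives were chosen with earlier results of these data known. Named genes were the 10 highest scores without a mitochondrial match, the thermogenic and transcription factor genes with a score of at least 10, the 4 highest-scoring genes of each other list, the 10 genes with the most summits and the summits nearest to the limits. One item that this rule names is not reported here. Other names, including small RNA genes, were chosen after their values were seen. Alternatives were score minimums, merging summits within 500 bp, all RefSeq transcripts, every gene within 50 kb, and other windows.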

Additional observations from a re-analysis of the deposited data

How the results depend on the processing

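With a score of at least 5, 1963 summits remained (median 8.65, 4.75 per Mb, 12.2% at a masked base, 1336 genes). Raising the minimum score to 10 left 827 (median 16.4, 2.00 per Mb, 66.7% upstream, 7.62% at a masked base, 644 genes, 20.8% of thermogenic and 22.6% of transcription factor genes), by construction fewer. With all RefSeq transcripts in place of curated mRNAs there were 3633 summits at 6.62 per Mb, 58.4% upstream, and 2599 were shared with those described (60.8% of these). When every gene with a TSS within 50 kb was counted, 4546 genes had one. Merging summits within 500 bp gave 4204, and leaving out mitochondrial matches 4273. Of settings chosen after seeing the data, leaving out summits within 1 kb of another RefSeq start gave 3740 with 12 motifs denser at the center, and leaving out those within 500 bp of a small RNA gene, misc_RNA genes included, gave 4129 near 2305 genes. Leaving out each list's gene with the most summits, also chosen after seeing the data, gave 35.5, 29.4, 71.1, 42.6 and 16.9 per Mb for the 5 adipocyte lists and 19.96 for the endothelial list. Motifs denser at the center numbered from 9 (flank of 200 to 500 bp) to 15 (score of at least 5). The looser DR1 pattern raised its share from 0.0468% to 0.585%, and an NFI half-site (TTGGCA) raised that of NFI from 1.38% to 13.0%.

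Leaving out a replicate could not be run. No paired analysis was possible because there are no values per library. Depth and the role of each library in the peak call are unknown, and no statement on either genotype can be drawn from the scores.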
